A study of Mus musculus with 18 samples.

Results

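The genes described here encode the SR proteins and the hnRNPs, the major families of sequence-specific splicing factors. They were taken from the table of all replicate sets as every gene whose symbol begins with Srsf and a digit or with Hnrnp, leaving out processed copies marked -ps. This gave 31 of 18659 genes, of which 11 were SR genes and 20 were hnRNP genes. RNA-seq was performed on serum-grown (FCS) mouse embryonic stem cells (mESCs), in which *Stag1*, a subunit of the cohesin complex, was knocked down (KD) with siRNA for 24 h. The siRNAs were a commercial pool (SP), a pool to the 3′ end of *Stag1* (3p), a custom duplex of 1 sequence to its 5′ end (5p) and an enzymatically prepared siRNA to an upstream alternative start of *Stag1* (SATS), each set against scrambled siRNA (scr). The catalogue numbers that the paper lists for 3p are, but for their first letter, among those it lists for SP. Set 1 held 1 scr library and 3 SP libraries (1a, 1b and 1c). Set 2 held 1 library of each of the 5 siRNAs and 1 of untreated cells, and set 3 held 1 of each siRNA and 1 of luciferase control siRNA, so that 16 libraries were analyzed in all. RNA was depleted of rRNA before sequencing.

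SR proteins bind exonic enhancer sequences through RNA recognition motifs and recruit the spliceosome through domains rich in arginine and serine, whereas hnRNPs coat nascent transcripts and often silence exons, so that the balance between the families sets which exons are kept. Many genes of both families regulate themselves by including a poison exon that sends the transcript to nonsense-mediated decay (NMD). In mESCs, SRSF3 is known for its role in the splicing and export of pluripotency mRNAs. The values below count all transcripts of a gene together and do not separate productive from decayed isoforms.

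The libraries held 9023224 to 14040830 reads on genes in set 1 and 32137666 to 45660840 in sets 2 and 3, and the rRNA precursor *Rn45s* took 69.2% to 79.1% of them in set 1 and 14.7% to 23.9% in the others. *Stag1* stood at 17.3% to 32.8% of the scr library of its set in the SP, 3p and 5p libraries and at 49.7% to 50.5% in the SATS libraries, while the untreated and luciferase libraries stood at 86.3% to 104%. All 10 embryonic stem cell markers listed were detected, with a summed normalized value of 40600 to 72900 per library. The 5 fibroblast feeder markers listed summed to 2360 to 5340 in set 2, 280 to 499 in set 3 and 80.4 to 451 in set 1, and in set 2 *Col1a1*, a collagen chain of connective tissue, made up 1850 to 4630 of it. The paper describes gelatin-coated plates for its serum-grown cells and mentions no feeder layer. The source of the feeder marker transcripts was not tested. The 5 primitive endoderm markers summed to 80.5 to 388 and the 4 neural markers to 763 to 1520.

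The 31 genes together took 1.03% to 1.11% of the reads other than *Rn45s* in set 1 and 0.975% to 1.09% in sets 2 and 3. Apart from *Srsf12*, every one of these genes had at least 58 reads in each library of set 1 and at least 232 in each library of sets 2 and 3, the lowest in both cases being *Hnrnpa1*. *Srsf12* had 0 to 6 reads in set 1 and 40 to 104 in sets 2 and 3. Counting error therefore weighs on *Srsf12*. In set 1 it also weighs on *Hnrnpa1* (58 to 151 reads), *Hnrnpa3* (62 to 189) and *Hnrnph3* (77 to 195). It covers reads only, since PCR copies are not independent molecules.

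Per kilobase (kb) of annotated exon, the most abundant members in the scr libraries of sets 2 and 3 came from both families. *Hnrnpab*, an AU-rich element binding protein, led with 2814 per kb in set 2 and 2383 in set 3. *Srsf2*, which recognizes exonic enhancers, followed with 2118 and 2245 per kb, and *Srsf1*, the founding factor of 5′ splice site choice, with 1519 and 1920. These are normalized values divided by exon length, and the ranges of *Srsf1*, of *Hnrnpc* (1493 and 1897), which coats uridine tracts of nascent RNA, and of *Hnrnpk* (1628 and 1662), which binds C-rich RNA, overlap, so their order was not resolved. The median over the 31 genes was 525 per kb, against 105 over 10485 protein-coding genes of the table with a mean value of at least 50. The lowest 3 were *Srsf12* (7.73 and 6.8 per kb), *Hnrnpa1* (58.8 and 43.5), a silencer of exons, and *Hnrnpr* (64.3 and 67.8), which is found on axonal mRNAs and whose annotated exons reach 22199 bases.

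Part of the sequence of some members is not theirs alone. Of the 75-base windows of the annotated transcripts of *Hnrnpa1*, 27% also occur in transcripts of 13 genes elsewhere, 12 of them pseudogenes, and for *Hnrnpa3* 26.1% occur in 37 others, of which 35 are pseudogenes. *Hnrnpf*, a factor that binds runs of G, shared 34.2% of its windows. In all, 18 of the 31 genes shared no window, 8 shared under 10% and 5 shared 10% or more, the last being *Hnrnpf*, *Hnrnpa1*, *Hnrnpa3*, *Hnrnpk* and *Hnrnph2*. The levels of *Hnrnpf*, *Hnrnpa1* and *Hnrnpa3* are therefore uncertain, and reads of such windows may have been assigned elsewhere or dropped. Exons of 11 members overlap a gene on the opposite strand (*Srsf4* over 1532 bases). Among these are the leaders per kb, *Hnrnpab* (809 of 2782 bases) and *Srsf2* (748 of 2958), and the part of such reads in their levels was not tested. Exons of 3 members overlap a gene on the same strand. These are *Hnrnpm* (*March2*, over 1169 of 7956 bases), *Hnrnpul2* (*AC129217.1*, over 360 of 7108) and *Hnrnpa3* (*Gm24574*, over 57).

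**Figure D1:**
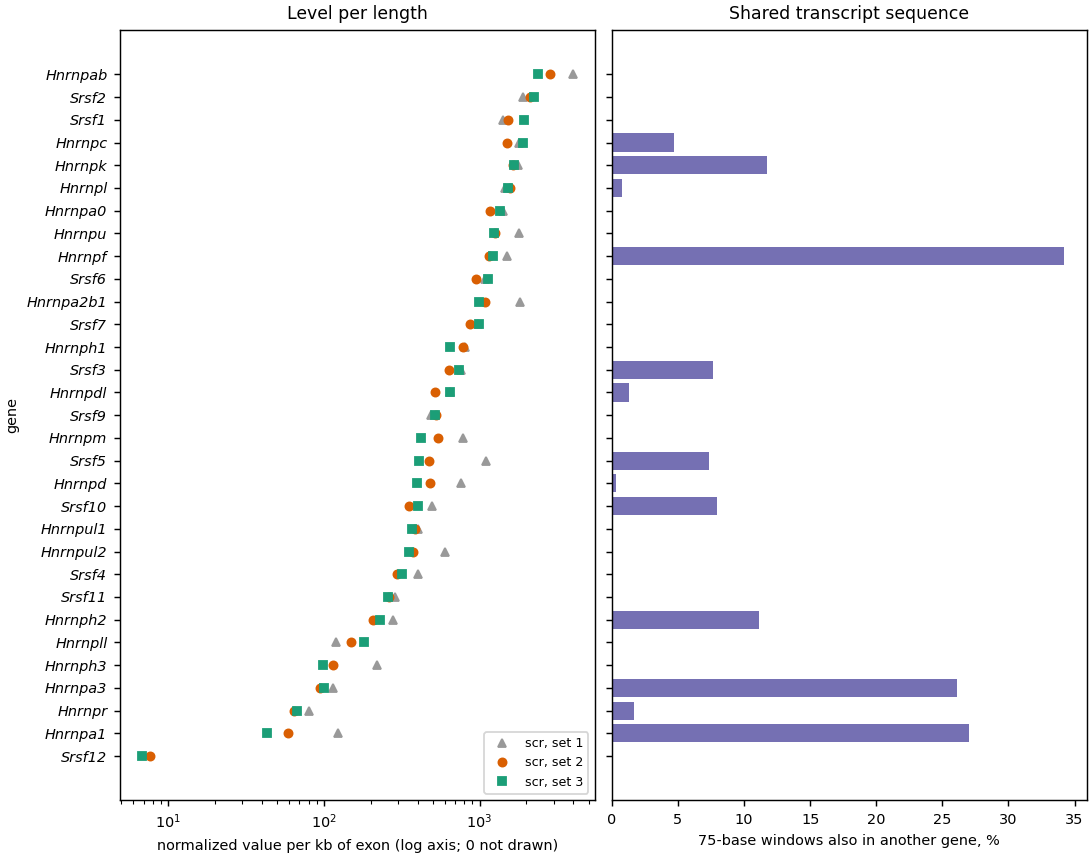
Left, the normalized value per kb of exon of each of the 31 genes in the 3 scr libraries (log axis), and right, the percentage of its 75-base transcript windows that also occur in transcripts of another gene. *Hnrnpab* and *Srsf2* lead, *Srsf12* (listed at 0 in the scr library of set 1 and not drawn there) is lowest, and the right panel is highest for *Hnrnpf*, *Hnrnpa1* and *Hnrnpa3*.

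Annotated isoforms of the kind decayed by NMD were common among the members. In GENCODE (GRCm38), 9 of 11 SR genes and 10 of 20 hnRNP genes have at least 1 transcript marked as an NMD target, 61.3% of the 31 genes, against 29.9% of the 10485 coding genes above. A transcript with a retained intron is annotated for 71% of the members and for 61.7% of those genes. The members also have more annotated transcripts, a median of 7 against 5, and the shares were not adjusted for this.

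More members were called between replicate sets than between siRNAs. With siRNA as a factor, the 5 libraries of set 3 were compared with the 5 of set 2 by limma on log2(value + 1), and 20 of the 31 genes passed a Benjamini-Hochberg adjusted p of 0.05. Of all 16490 genes tested, 51.6% passed, so a large part of the transcriptome differed between the sets. Among the 11019 genes with a mean of at least 50, 57.9% passed, 3054 higher in set 3 and 3331 lower. Higher in set 3 were 8 members (24.2% of all genes) and lower were 12 (27.4%). The SR genes leaned up, with 5 higher and 2 lower, and the hnRNP genes leaned down, with 3 higher and 10 lower; the difference between the families was not tested. Sets differ in the labels by number alone, so what distinguishes them cannot be told apart, and each set was made once, so these p-values measure the spread within sets.

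**Figure D2:**
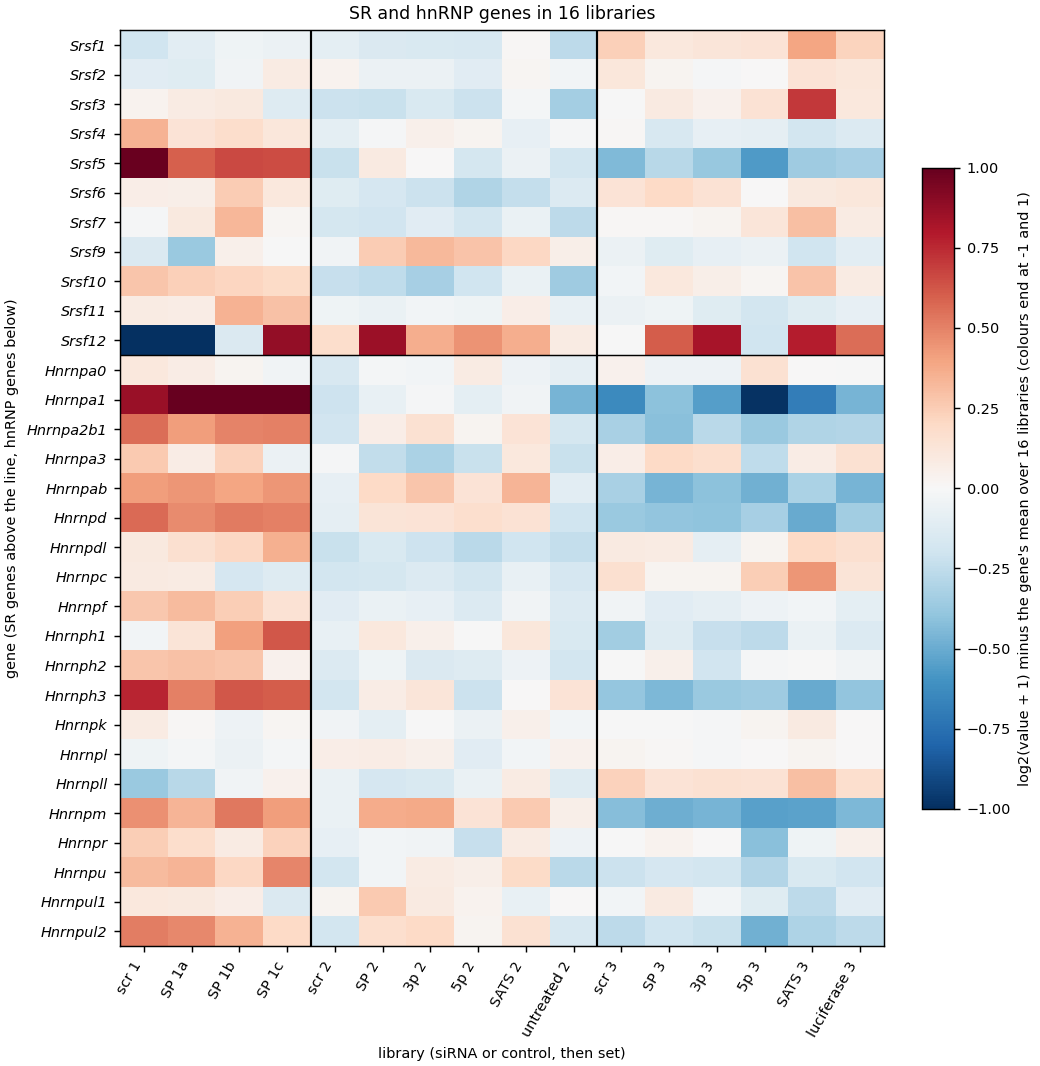
Heat map of the 31 genes (rows) in 16 libraries (columns, lines between sets), as log2(value + 1) minus the gene's mean over all libraries. The blocks of colour follow the sets: *Hnrnpm*, *Hnrnpab* and *Hnrnpd* are low in all 6 libraries of set 3 and *Hnrnpa1* and *Srsf5* are high in all 4 of set 1.

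*Srsf3* (ENSMUSG00000071172, chr17:29032628-29043373 in GRCm38, plus strand), which encodes the smallest SR protein and an adaptor of mRNA export, had normalized values of 5030 (scr), 5000 (SP), 5270 (3p), 5027 (5p) and 5764 (SATS) in set 2, and of 5838, 6212, 6022, 6449 and 9525 in set 3. Every siRNA library of set 3 was above every one of set 2. Its log2 fold change of set 3 against set 2 was 0.36 (95% interval 0.21 to 0.51, adjusted p = 0.000537, limma), and without the SATS libraries it was 0.27 (adjusted p = 0.00101, limma).

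The other SR genes that were higher in set 3 moved by similar amounts. *Srsf1* ranged from 8344 to 9385 in set 2 (median 8402) and from 10024 to 12208 in set 3 (median 10209), a log2 fold change of 0.31 (adjusted p = 0.000104, limma). *Srsf6*, a regulator of alternative exons, ranged from 4040 to 4583 and from 4994 to 5707 (0.32). *Srsf10*, which turns into a splicing repressor when dephosphorylated, had a log2 fold change of 0.30 and *Srsf7*, which also serves in mRNA export, of 0.24. In all 5 of these genes, with *Srsf3*, the 6 libraries of set 3 lay above the 6 of set 2.

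A pair of SR genes went the other way. *Srsf5* ranged from 1903 to 2360 in set 2 and from 1494 to 1833 in set 3, with no overlap and a log2 fold change of -0.33 (adjusted p = 4.78e-05, limma). *Srsf9* ranged from 875 to 1122 and from 781 to 861 (-0.31, adjusted p = 0.000686, limma). *Srsf2* (0.09), *Srsf4* (-0.08), *Srsf11* (-0.08) and *Srsf12* (-0.04) did not pass, and the interval of *Srsf12* ran from -0.39 to 0.31.

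Among the hnRNP genes, *Hnrnpm* (ENSMUSG00000059208, chr17:33646233-33686860, minus strand), whose protein binds GU-rich RNA, differed most between sets 2 and 3. It had values of 4337 (scr), 5885 (SP), 5909 (3p), 4985 (5p) and 5439 (SATS) in set 2, and of 3374, 3245, 3291, 3122 and 3135 in set 3. Its lowest library of set 2 lay well above its highest of set 3, and the log2 fold change was -0.71 (95% interval -0.85 to -0.57, adjusted p = 9.54e-07, limma), or 0.613 of the level in set 2.

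The A/B and D subfamilies held the members with the next lowest values. *Hnrnpab* ranged from 7829 to 10513 in set 2 (median 9515) and from 5943 to 6641 in set 3 (median 6244), a log2 fold change of -0.57 (adjusted p = 5.22e-06, limma). *Hnrnpd* (AUF1), which binds AU-rich elements and speeds mRNA decay, ranged from 3551 to 4238 and from 2663 to 2988 (-0.50, adjusted p = 3.56e-06, limma). *Hnrnpa2b1*, known for sorting RNA into granules and vesicles, ranged from 7131 to 9051 and from 6099 to 6764 (-0.37). None of these 3 overlapped between the sets. *Hnrnpa1* had a log2 fold change of -0.57, at levels of 185 to 212 in set 2 and 107 to 160 in set 3 and with the uncertainty of its copies. *Hnrnpdl*, the nearest relative of *Hnrnpd*, went up instead (0.27, adjusted p = 0.000412, limma), and *Hnrnpa0* (0.05) and *Hnrnpa3* (0.19) did not pass.

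Of the remaining subfamilies, *Hnrnpc* ranged from 6443 to 6934 in set 2 and from 7469 to 9929 in set 3, a log2 fold change of 0.33 (adjusted p = 0.000251, limma). The F/H factors, which bind runs of G, were split. *Hnrnph1* (-0.25) and *Hnrnph3* (-0.37) were lower in set 3, whereas *Hnrnpf* (0.02) and *Hnrnph2* (0.07) did not pass. *Hnrnpll*, the factor that switches CD45 exons in lymphocytes, was higher (0.26), and its paralog *Hnrnpl*, which binds CA repeats, had the smallest difference of all (0.00, 95% interval -0.10 to 0.11). The U subfamily, whose founder HNRNPU is a scaffold of nuclear RNA and chromatin, was lower throughout, with *Hnrnpu* at -0.23, *Hnrnpul1* at -0.14 and *Hnrnpul2* at -0.37. *Hnrnpk* (0.05) and *Hnrnpr* (-0.02) did not pass. Without the SP libraries, *Hnrnpul1* no longer passed (adjusted p = 0.0586, limma).

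**Figure D3:**
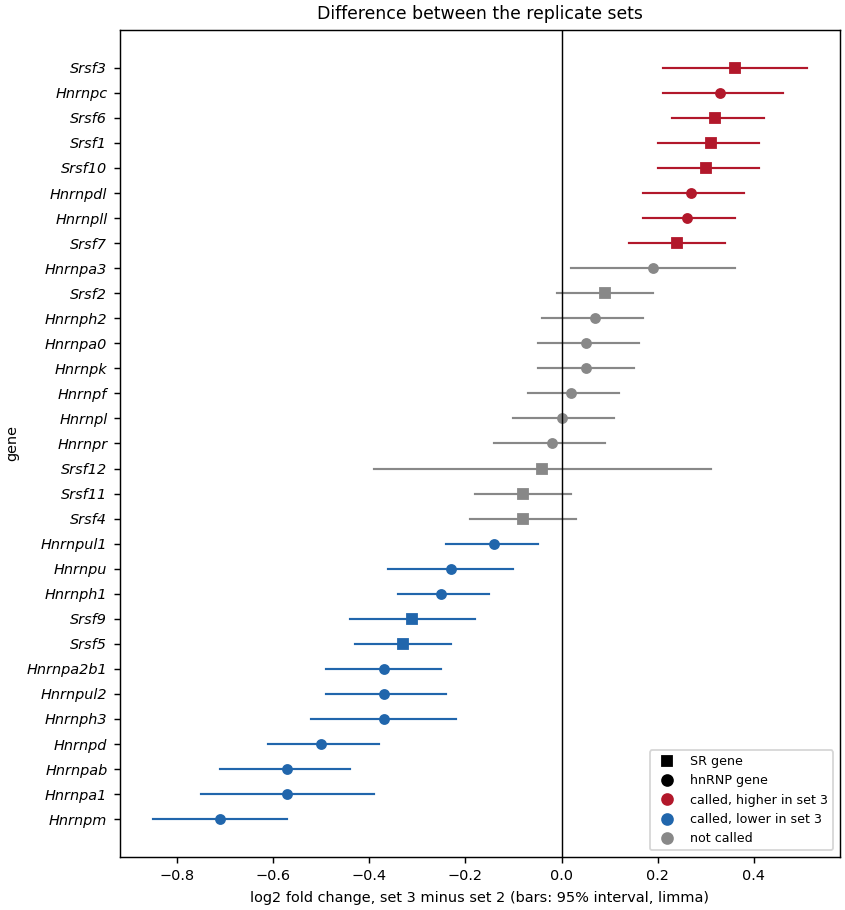
Log2 fold change of set 3 against set 2 for each of the 31 genes (squares SR, circles hnRNP), with 95% intervals from limma over 10 libraries. Red marks the 8 genes called higher and blue the 12 called lower, from *Srsf3* at 0.36 to *Hnrnpm* at -0.71.

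With the untreated and luciferase libraries included, the 6 libraries of set 2 and the 6 of set 3 did not overlap for 16 of the 31 genes, against 30.2% of 11058 genes with a mean of at least 50. Set 1 stood apart in 1 direction only. All 4 of its libraries lay above all 12 others for 11 members, *Srsf4*, *Srsf5*, *Srsf11*, *Hnrnpa1*, *Hnrnpa2b1*, *Hnrnpab*, *Hnrnpd*, *Hnrnpf*, *Hnrnph3*, *Hnrnpr* and *Hnrnpu* (9.03% of the 11058 genes), and below them for 0 members (11.3%). *Srsf5* was listed at 3356 to 4393 in set 1 against at most 2360 elsewhere, and *Hnrnpa1* at 388 to 556 against at most 212. Set 1 also differed in depth and in its share of *Rn45s*, and set 2 in its *Col1a1* level, as given above; their part in these differences was not tested. In bulk RNA, fewer cells of a type and less RNA per cell cannot be told apart.

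The sequences before the RefSeq start sites (GRCm38.p6, at most 250 bases, 5′ to 3′ on the strand of the gene) are shown for 4 members that the sets separated, *Hnrnpc* and *Srsf6*, higher in set 3, and *Hnrnpab* and *Hnrnpa2b1*, lower in it. They had the largest differences in each direction among called members that share under 10% of their windows and whose upstream sequence holds at least 200 bases before any annotated exon. Capitals mark matches on either strand to the motifs named in the next paragraph. *Srsf6* lies on the plus strand (chr2:162931258-162931507), and *Hnrnpc* (chr14:52104029-52104271), *Hnrnpab* (chr11:51606882-51607131) and *Hnrnpa2b1* (chr6:51469895-51470144) lie on the minus strand.
Srsf6: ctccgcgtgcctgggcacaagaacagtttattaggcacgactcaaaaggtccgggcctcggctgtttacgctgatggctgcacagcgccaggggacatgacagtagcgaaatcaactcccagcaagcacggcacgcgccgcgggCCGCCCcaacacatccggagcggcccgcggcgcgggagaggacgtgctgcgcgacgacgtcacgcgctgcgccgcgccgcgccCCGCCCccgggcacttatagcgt
Hnrnpc: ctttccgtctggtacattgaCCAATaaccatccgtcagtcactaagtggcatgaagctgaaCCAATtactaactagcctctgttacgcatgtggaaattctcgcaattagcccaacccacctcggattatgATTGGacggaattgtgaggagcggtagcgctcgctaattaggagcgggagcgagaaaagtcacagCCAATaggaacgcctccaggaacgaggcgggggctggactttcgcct
Hnrnpab: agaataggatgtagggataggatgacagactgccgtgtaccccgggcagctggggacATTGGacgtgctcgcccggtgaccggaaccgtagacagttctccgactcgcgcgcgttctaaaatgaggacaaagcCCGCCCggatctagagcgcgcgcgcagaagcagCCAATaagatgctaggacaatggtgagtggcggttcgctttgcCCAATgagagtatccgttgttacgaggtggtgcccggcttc
Hnrnpa2b1: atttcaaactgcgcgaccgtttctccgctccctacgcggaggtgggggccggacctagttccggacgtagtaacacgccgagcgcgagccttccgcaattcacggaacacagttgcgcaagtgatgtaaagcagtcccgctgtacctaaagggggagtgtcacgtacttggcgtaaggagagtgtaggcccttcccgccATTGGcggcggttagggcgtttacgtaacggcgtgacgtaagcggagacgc

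Within these sequences, *Hnrnpc* holds 4 matches to CCAAT and *Hnrnpab*, which differed in the other direction, holds 3. *Hnrnpa2b1* holds 1 and *Srsf6* 0, while *Srsf6* holds 2 matches to GGGCGG. In the 250 bases before the start of the 29 members with a promoter in the RefSeq table, CCAAT was found in 15 (51.7%), against 37.1% of 8451 genes with a mean of at least 50 and 33.8% of all 32851 promoters. GGGCGG was found in 23 (79.3%, against 63.4% and 32.7%) and CCGGAAG in 6 (20.7%, against 15% and 6.91%). CACGTG was found in 2 (6.9%, against 8.95% and 6.02%) and TATAAA in 3 (10.3%, against 5.64% and 12.4%). TGACGTCA (3.05% and 1.55%), the NRF1 core motif (1.8% and 0.782%) and the YY1 motif (0.686% and 0.301%) were found in 0. Each motif was sought on both strands, and a match describes letters only.

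The other genes of the splicing machinery were counted in the same way. Of 35 core spliceosome genes, 7 were higher and 16 lower in set 3 (median log2 fold change -0.11), including *Snrnp70* of the U1 snRNP (-0.40) and the Sm gene *Snrpd3* (-0.39). Of 29 other RNA-binding splicing regulators, 9 were higher and 5 lower (median 0.01), with *Ptbp2*, the neuronal polypyrimidine tract binding protein, at 0.72. Of 19 SR-related proteins and SR protein kinases, 7 were higher and 5 lower (median 0.09), among them the kinase *Clk4* (0.36). Of 10 genes of NMD, 1 was higher, *Smg1* (0.30), and 2 were lower, *Upf3a* (-0.71) and *Smg9* (-0.50). Of all 16490 genes, 24.2% were called higher and 27.4% lower, 51.6% in all, and their median was -0.01. Among the 11019 genes with a mean of at least 50, 57.9% were called.

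The KDs were compared with scr next. In the SP comparison over 3 sets (15970 genes), with the 3 SP libraries of set 1 averaged, 0 of 31 genes passed, against 0% of all genes, and 0 had an unadjusted p under 0.05 (0.526% of all genes). With the set as a replicate block, 0 passed (0% of all genes) and 2 had an unadjusted p under 0.05 (5.85%), and edgeR and DESeq2 on the recovered reads called 0. The median log2 fold change of the members was 0.03, with 23 of 31 above 0, and of all genes 0.01. Leaving the fold change of *Srsf12* aside, which has no reads in the scr library of set 1, the range ran from -0.10 to 0.27. The 95% interval lay within 0.5 on either side of 0 for 20 of the 31 genes, and for 29 with the block.

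Among the other members, *Hnrnph1* had the highest log2 fold change under SP. It went from 4741 in scr to 5293, 6442 and 7457 in the 3 SP libraries of set 1, from 4601 to 5199 in set 2 and from 3805 to 4420 in set 3. Every SP library was above the scr library of its set, but the luciferase control library of set 3 stood at 4400, about as far above scr as SP, and the untreated library of set 2 at 4344, below scr. Its log2 fold change was 0.27 (95% interval -0.13 to 0.68, adjusted p = 1, limma), and with the replicate block the adjusted p was 0.759 (limma). *Hnrnpa1* (0.25) and *Hnrnpm* (0.12) came next and *Hnrnpc* (-0.10), *Srsf4* (-0.10) and *Hnrnpa3* (-0.09) were lowest, each with an adjusted p of 1 (limma).

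In sets 2 and 3 the siRNAs were fitted together. SP left 0 of 31 members called (0.00606% of 16490 genes, and with the replicate block 0 members and 0.746% of genes), and 3p likewise 0 (0.00606%, and 0 members and 0.285% with the block). At an unadjusted p under 0.05 in limma, 0 members were found with SP (2.49% of genes) and 0 with 3p (1.73%) without the block, and with it 5 (12.5%) and 2 (10.4%). For both siRNAs edgeR and DESeq2 on the recovered reads also called 0. The medians were 0.05 for SP and 0.03 for 3p. *Srsf12*, at 18.5 to 39.7 in normalized value, is left aside in the ranking of the siRNA comparisons. The highest under SP were *Srsf5* (0.24), *Hnrnpul2* (0.21) and *Hnrnph1* (0.20), and the lowest were *Hnrnpll* (-0.10), *Srsf2* (-0.09) and *Srsf1* (-0.09). Under 3p, *Hnrnpul2* (0.21), *Hnrnpm* (0.20) and *Hnrnpa2b1* (0.20) were highest and *Srsf2* (-0.11), *Hnrnpa3* (-0.10) and *Hnrnph2* (-0.10) lowest. With the block, 30 of the 31 intervals lay within 0.5 of 0 in both comparisons, against 16 and 14 without it.

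With 5p, 0 members were called (0.0121% of genes, and with the block 0 members and 2.37% of genes) and 1 had an unadjusted p under 0.05 without the block, against 3.63% of genes (3 with it, against 15.7%). edgeR and DESeq2 also called 0, and 15 members were higher and 16 lower. The member below 0.05 without the block was *Hnrnpr* (ENSMUSG00000066037, chr4:136310942-136359447 in GRCm38, plus strand). Its values in set 2 were 1426 (scr), 1484 (SP), 1471 (3p), 1285 (5p) and 1595 (SATS), and in set 3 they were 1505, 1546, 1518, 1132 and 1470. The 5p library was the lowest of its set both times, also below the untreated (1457) and luciferase (1562) libraries. The log2 fold change was -0.28 (95% interval -0.51 to -0.05, adjusted p = 1, limma), and with the replicate block the adjusted p was 0.1 (limma). *Hnrnpa3* (-0.26) and *Srsf6* (-0.16) were the next lowest, and *Hnrnpa0* (0.18), *Srsf9* (0.16) and *Hnrnpd* (0.15) were highest. Of the markers listed, *Col1a1* (-0.75) and the stem cell gene *Lin28a* (-0.68) were lower under 5p with the block (adjusted p = 0.0255 and 0.00113, limma), and the stem cell gene *Fgf4* was lower under 3p (-0.88, 0.00937). Their part in the members' values was not tested.

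The 5p and 3p siRNAs, directed at opposite ends of the *Stag1* mRNA, were also compared with each other. No member passed, that is 0 of 31 (0% of genes, and with the block 0 members and 3.26% of genes) by limma, and 1 had an unadjusted p under 0.05 without the block (4.09% of genes, and 3 members and 15.8% with it), again *Hnrnpr*, at -0.31 (95% interval -0.54 to -0.08, adjusted p = 0.956, and 0.0623 with the replicate block, limma). DESeq2 and edgeR called 0 as well. Lowest after it were *Hnrnpa1* (-0.26) and *Hnrnpul2* (-0.22), and highest were *Hnrnpa0* (0.15), *Hnrnph2* (0.10) and *Hnrnpc* (0.09). The median was -0.04, with 21 of 31 members lower under 5p, and 0.02 over all genes. Both comparisons of *Hnrnpr* use the same 5p libraries.

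SATS gave 1 member that was called against scr when the set was a block. The paper names its luciferase control as enzymatically prepared, like SATS, but not scr, so target and kind of siRNA cannot be told apart here. For *Srsf3* the luciferase library, in set 3 only, stood at 6274. *Srsf3* went from 5030 in scr to 5764 in set 2 and from 5838 to 9525 in set 3. The SATS library of set 3 stood far above the other 5 libraries of that set, which ranged from 5838 to 6449, and the SATS library of set 2 was the highest of its set. The log2 fold change was 0.45. Without the block its adjusted p was 1 (95% interval -0.12 to 1.02, limma), so 0 of 31 members were called (0% of genes, with 0 members and 3.94% of genes at an unadjusted p under 0.05), and with the replicate block it was 0.0417 (0.22 to 0.68, limma), when 1 of 31 members and 2.64% of all genes passed and 6 members and 18.8% of genes had an unadjusted p under 0.05. Without the SATS library of set 3 the blocked log2 fold change was 0.22 (adjusted p = 0.479, limma), and without the scr library of set 2 or of set 3 the adjusted p was 0.137 or 0.413 (limma). It was 0.0549 or 0.0556 without the SP library of set 2 or of set 3 (limma). edgeR called *Srsf3* with the block (adjusted p = 0.0346) and neither edgeR nor DESeq2 called it without.

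The same library of set 3 was the highest of its set for more of the other members than it was the lowest for. For how many of all genes it was the highest or lowest was not counted. *Srsf1* stood at 12208 there against 10024 to 10965 in the other 5 libraries, *Srsf7* at 4278 against 3507 to 3784 and *Srsf10* at 3517 against 2834 to 3100. For *Hnrnpc* it held 9929 against 7469 to 8699. It was also the highest for *Srsf2*, *Hnrnpab*, *Hnrnpdl*, *Hnrnpf*, *Hnrnph1*, *Hnrnpk*, *Hnrnpl*, *Hnrnpll* and *Hnrnpu*. It was the lowest of its set for the SR genes *Srsf4* (988 against 1006 to 1130) and *Srsf9* (781 against 822 to 861) and for *Hnrnpd*, *Hnrnph3* and *Hnrnpul1*. Fitted over both sets, 27 of 31 members were higher under SATS, with a median of 0.07 and 0.12 for the 11 SR genes, while 8136 of all 16490 genes were higher. Within the sets, 27 of 31 were above scr in set 2 (median 0.15) and 18 of 31 in set 3 (median 0.01). The highest after *Srsf3* were *Srsf10* (0.24, adjusted p = 0.104 with the replicate block, limma) and *Hnrnph1* (0.23, 0.0906), and the lowest were *Hnrnpul1* (-0.17), *Srsf4* (-0.09) and *Srsf6* (-0.08). The SD over the members of the difference from scr was 0.23 in the SATS library of set 3 and 0.13 in that of set 2, against 0.28 and 0.20 over the 11058 genes with a mean of at least 50.

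Some genes of the other splicing lists passed with the block under SATS, against 2.64% of all genes. Among them were the core spliceosome genes *Snrpe* (0.66), *Snrpb2* (0.60) and *Sf3b6* (0.59), 3 of 35, and the kinase *Clk1* (0.48), which phosphorylates SR proteins, and *Rsrc2* (0.68), 2 of 19. Under 3p, *Rbfox2*, which binds GCAUG elements, passed with the block (-0.55), against 0.285% of all genes. In 5p against 3p, *Mbnl1* (0.58), *Rbfox2* (0.53) and *Syncrip* (0.29) were higher and *Cirbp* (-0.41) and *Luc7l2* (-0.49) lower with the block, against 3.26% of all genes called. None of the genes of these lists passed without the block in any comparison of siRNAs, by limma.

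**Figure D4:**
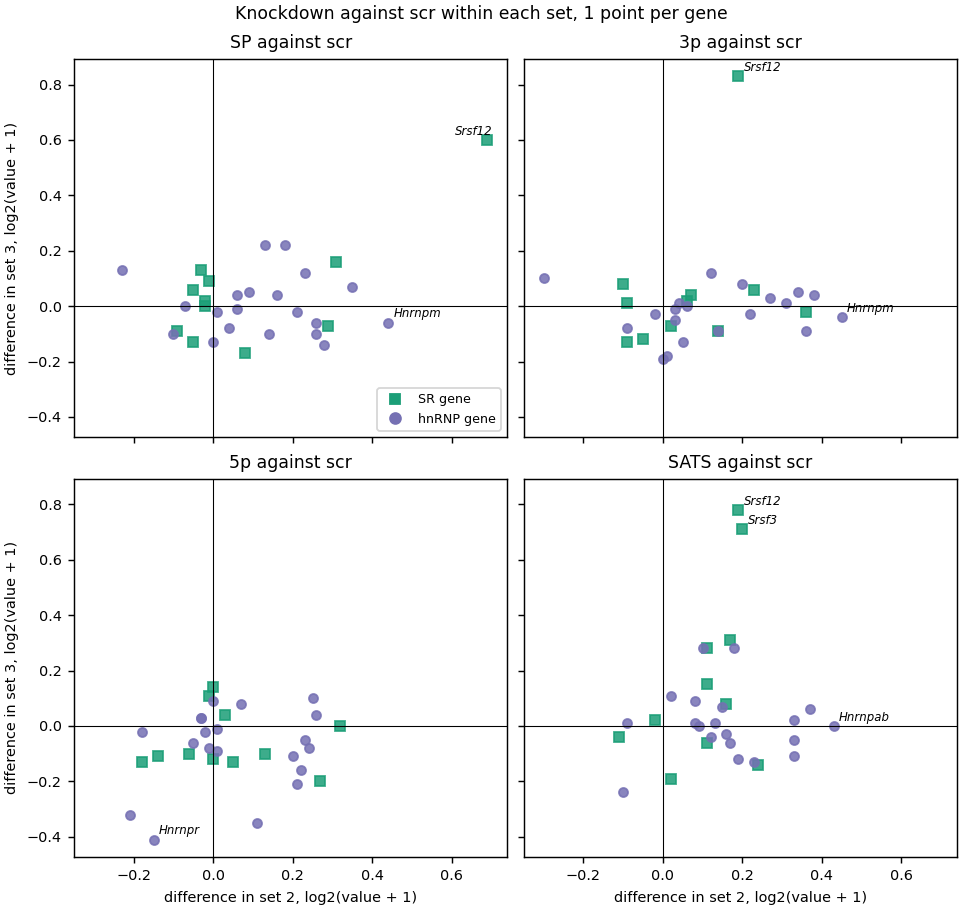
Difference of each KD library from the scr library of its set on the log2(value + 1) scale, set 2 on the x axis and set 3 on the y axis, 1 panel per siRNA and 1 point per gene (squares SR, circles hnRNP). *Srsf3* under SATS (0.20 and 0.71), *Hnrnpr* under 5p (-0.15 and -0.41), *Hnrnpm* in set 2 and the sparsely counted *Srsf12* lie away from the other points.

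The KD libraries were also compared with both control libraries of their set. In set 2, all 4 KD libraries lay above both control libraries (scr and untreated) for 11 of the 31 genes, against 10.6% of 11058 genes. These were *Srsf5*, *Srsf9*, *Hnrnpa0*, *Hnrnpa1*, *Hnrnpa2b1*, *Hnrnpab*, *Hnrnpd*, *Hnrnph1*, *Hnrnpm*, *Hnrnpu* and *Hnrnpul2*, and 1 gene, *Srsf6*, lay below (10.4%). In set 3, 0 members lay above both controls (scr and luciferase; 8.36% of genes) and 1, *Hnrnpm*, lay below (9%).

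For *Hnrnpab*, in set 2 the controls stood at 7829 (scr) and 7699 (untreated) and the KD libraries at 9515 (SP), 10040 (3p), 9098 (5p) and 10513 (SATS). In set 3 the controls stood at 6630 (scr) and 5992 (luciferase) and the KD libraries at 6009, 6244, 5943 and 6641. The groups were separate in set 2 and overlapped in set 3. With KD against control fitted in each set over 12 libraries, a model chosen after seeing the data, its log2 difference was 0.33 in set 2 (adjusted p = 0.173, limma) and -0.02 in set 3 (adjusted p = 0.964, limma).

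*Hnrnpd* had a difference of 0.29 in set 2 and -0.05 in set 3, *Hnrnpa2b1* of 0.28 and -0.03, and *Hnrnpm* of 0.29 and -0.07. For *Hnrnpu* they were 0.30 and 0.00 and for *Hnrnpul2* 0.31 and -0.04. The difference between the sets was itself tested, and 0 of 31 members passed (0% of 16684 genes, limma), with 7 at an unadjusted p under 0.05 against 3.02% of genes. The lowest of those 7 was *Hnrnpd* (0.0028 by limma, adjusted p = 1). The 4 KD libraries are of 4 siRNA preparations, but SP and 3p overlap in their catalogue numbers and are not separate reagents. The control libraries are of different kinds in the sets. Within set 2 the summed feeder markers were highest in the untreated library (5340), and their part in this pattern was not tested.

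**Figure D5:**
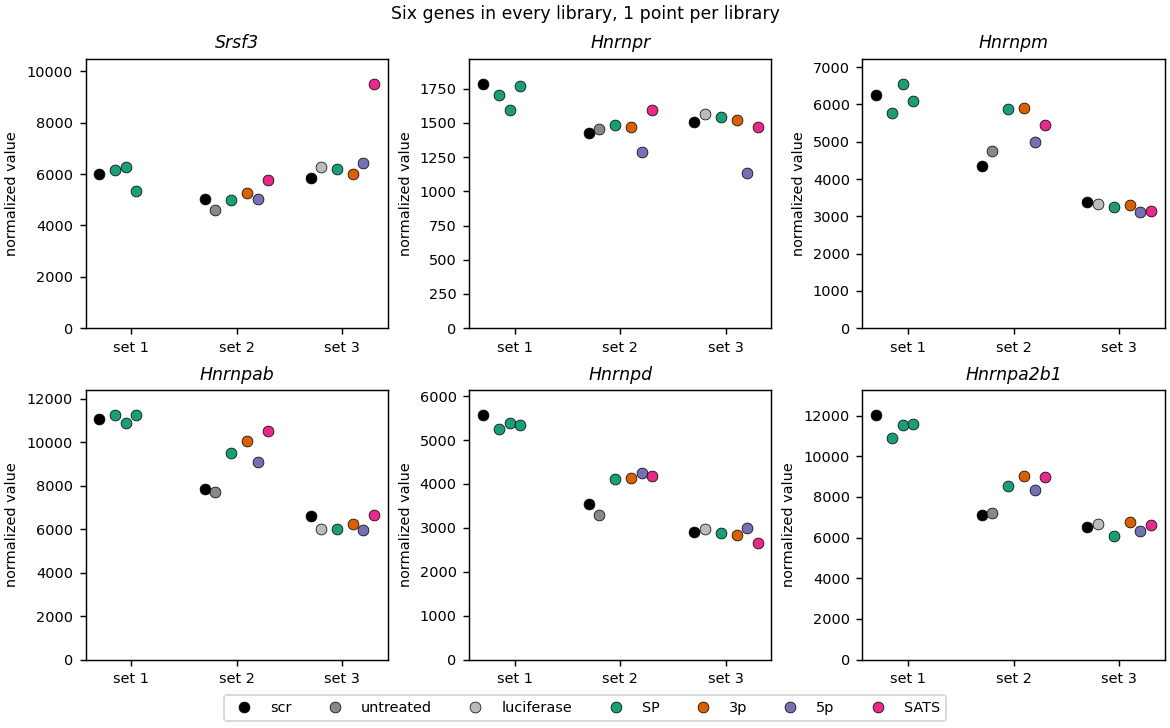
Normalized values of *Srsf3*, *Hnrnpr*, *Hnrnpm*, *Hnrnpab*, *Hnrnpd* and *Hnrnpa2b1* in every library, grouped by set, 1 point per library, on axes that start at 0. *Srsf3* is highest in the SATS library of set 3 (9525), *Hnrnpr* lowest in the 5p library of set 3 (1132), and the 4 hnRNP genes that follow step down from set 2 to set 3.

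In set 1, with 1 scr library, differences had no replicate check. The median difference of the members from scr was -0.01 in SP 1a, -0.02 in SP 1b and -0.04 in SP 1c. *Srsf5* was at 4393 in scr and at 3356, 3502 and 3479 in the SP libraries, whereas SP was above scr in set 2 (2360 against 1903) and in set 3 (1833 against 1636). *Hnrnpa1* was at 388 and at 494, 486 and 556. *Hnrnph1*, given above, ranged from 5293 to 7457 among the 3 SP libraries. The control libraries of the other sets differed from scr by at most 0.3 on the log2 scale for all members but *Hnrnph3* in the untreated library (448 against 358) and *Srsf12* in the luciferase library (32.1 against 21.4).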

How the data were processed

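RNA was measured by rRNA-depleted, strand-marking RNA-seq in 16 serum-grown mESC libraries; the libraries of 2i-grown cells were not analysed here. The submitters' processing notes name HISAT2, mm10, featureCounts, edgeR (v3.16.5) and DESeq2 (v1.14.1). Per the paper's methods, strand was set for paired-end samples only, and which libraries were paired-end is not given in the sources used here, so reads of a gene and of an antisense partner may not have been told apart. The deposited values are a signal scale that the authors made by dividing gene counts by size factors, and 100% of them were whole reads within 0.1 once each library's value of 1 read was found. The libraries held 9023224 to 45660840 reads.

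log2(value + 1) was fitted with limma (v3.58.1, R v4.3.3) for genes whose values added up to 10 or more, with Benjamini-Hochberg adjustment at 0.05. A fold change on this scale understates the change of low genes. In the SP comparison over 3 sets, the mean of the SP libraries stood for set 1, and 5 siRNAs were fitted together over 10 libraries of sets 2 and 3. Set numbers come from the labels, and libraries of the same number deviated together (r = 0.772 to 0.823 in 3 pairs for SP and 0.809 to 0.934 in 20 pairs for sets 2 and 3), so the set is also given as a block. The paper calls the replicate libraries independent, but the sources used here do not say that the sets were separate cultures, so p-values may measure technical spread. Alternatives were other pseudocounts, filters, TMM scaling, edgeR (v4.0.16) and DESeq2 (v1.42.0) on the recovered reads, other controls and leaving out libraries, and the test steps were checked on simulated data. The fit of KD against control within sets and the blocked fits without single libraries were chosen after seeing the data.

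Genes were located in GENCODE vM21 (GRCm38), and upstream sequences were taken from RefSeq (GRCm38.p6). Exon length is that of all annotated exons of a gene together. The members and the other splicing lists were chosen with earlier results of these data known. Members were named where a comparison called them without or with the block, where they held the 3 highest or the 3 lowest log2 fold changes at a mean value of at least 50, or the 5 highest or 3 lowest levels per kb. Members shown for the overlap of libraries, for high values in the SATS library of set 3 or for upstream sequence were chosen after their values were seen. Results of some listed genes that are no members are not reported here.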

Additional observations from a re-analysis of the deposited data

Results flagged for a closer look

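In 7 of 62 series, each of 1 member in the 6 libraries of set 2 or of set 3, a single library stood apart from the rest, with a gap to its nearest neighbour, as a share of the whole range, above Dixon's 95% critical value. Chance flags about 1 in 20 groups. The flags were counted for members only, so no share over all genes stands beside them. The SATS library of set 3 gave 3 of them, all high: *Srsf3* (9525 against 5838 to 6449, a share of 0.83), *Srsf7* (4278 against 3507 to 3784, 0.64) and *Hnrnpk* (11466 against 10679 to 10960, 0.64). The 5p library of set 3 gave 2, both low, *Hnrnpr* (1132 against 1470 to 1562, 0.79) and *Hnrnpa3* (435 against 542 to 594, 0.68). *Hnrnph2* was low in the 3p library of set 3 (875 against 978 to 1035, 0.64) and *Srsf11* high in the SATS library of set 2 (2378 against 2164 to 2233, 0.68). Many other genes also moved in the SATS and 5p libraries of set 3. At least 0.3 from scr on the log2 scale lay 22.4% and 17.5% of 11058 genes there, against 3.61% to 15.7% in the other libraries of set 3.

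For *Hnrnpm*, all 4 KD libraries were above scr in set 2 (mean log2 difference 0.35) and all 4 were below it in set 3 (-0.08), a difference of -0.43. For *Srsf4* they were above scr in set 2 (0.09) and below it in set 3 (-0.14), a difference of -0.23. The controls did the same for *Srsf4*, with the untreated library of set 2 at 0.09 and the luciferase library of set 3 at -0.15 from scr. These differences were not tested as such; in the fit that also held the untreated and luciferase libraries, the difference between sets was -0.36 for *Hnrnpm* and -0.11 for *Srsf4*, with an adjusted p of 1 for both (limma).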

How the results depend on the processing

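The replicate block, which uses the pairing of libraries by set, changed the call of 1 member in the siRNA comparisons. With it 1 member, *Srsf3*, was called under SATS, and edgeR with the block also called 1. Blocked fits without a 3p or a 5p library or without the SATS library of set 2 called 1 as well, and those without a scr or SP library or the SATS library of set 3 called 0. The numbers of members called in the other siRNA comparisons stayed at 0 under every alternative run, and between sets 2 and 3 they ranged from 19 to 21. *Hnrnpa3* was called there by edgeR, by DESeq2 and without the 5p or the SATS libraries. The blocked counts over all genes, in the report, differ from the unblocked ones by more than 1.5 times in sets 2 and 3, and DESeq2 without a block called 68 genes for 5p and 88 for 5p against 3p.

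Of 984 alternatives for named members, 959 kept direction and side of the threshold. Directions reversed in 17, all on leaving out libraries. For *Hnrnpm* the log2 fold change ranged from -0.04 to 0.21 under SP over 3 sets and from -0.22 to 0.63 under 3p. Under SP in sets 2 and 3 it ranged from -0.26 to 0.08 for *Srsf1* and from -0.25 to 0.05 for *Hnrnpll*. Under 3p it ranged from -0.01 to 0.41 for *Hnrnpa2b1* and from -0.34 to 0.14 for *Hnrnpa3*. Under 5p it ranged from -0.01 to 0.33 for *Srsf9* and from -0.10 to 0.40 for *Hnrnpd*. Under SATS it ranged from -0.24 to 0.09 for *Srsf6*, and for *Srsf4* it was 0.03 with the block and without the scr library of set 3. For 5p against 3p it ranged from -0.70 to 0.18 for *Hnrnpa1*, from -0.13 to 0.30 for *Hnrnpc* and from -0.47 to 0.04 for *Hnrnpul2*. None of these had been called. An unblocked fit without 1 library of a compared group sets libraries of unequal sets against each other. The part of this in the reversals was not tested.

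With 2 libraries per siRNA, the 95% interval of a member reached a median of 0.44 to either side without the block and 0.17 with it. These intervals are not adjusted for the number of genes. Calls were made after adjustment, so larger changes could go uncalled too. With the block, *Hnrnpr* under 5p, at -0.28, had an adjusted p of 0.1 (limma) and was not called.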
